A study of Mus musculus with 9 samples.

Results

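The 10 genes described here make, load and display peptides on major histocompatibility complex (MHC) class I molecules. They are H2-K1 and H2-D1, the classical class I heavy chains of this strain, B2m, Tap1, Tap2, Tapbp, Psmb8, Psmb9, Psmb10 and Nlrc5. They were picked by symbol from the 21930 genes of the deposited count table, where all 10 were found, and all 10 passed the filter on low counts. Lung RNA was sequenced from male C57BL/6 mice of 6 to 8 weeks in 3 groups of 3 biological replicates. Control mice received saline in the trachea. LPS mice received 2 mg/kg lipopolysaccharide (LPS), the endotoxin of Gram-negative bacteria that is used to model acute lung injury, and then vehicle by mouth. LPS+RSBD mice received the same LPS and, from 24 hours later, Renshen Baidu Powder (RSBD), an herbal decoction of traditional Chinese medicine, by mouth once a day for 5 days at a dose that the labels do not state. All lungs were taken on day 5 after LPS, so earlier times are not covered, and whether control mice received vehicle by mouth is not stated.

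Class I molecules display fragments of the proteins a cell makes to CD8 T cells, and NK cells sense their loss. Proteins are cut by the proteasome, the peptides enter the endoplasmic reticulum through the Tap1-Tap2 transporter, and tapasin (Tapbp) holds empty class I molecules beside it until a peptide binds. Interferon gamma is known to induce Psmb8, Psmb9 and Psmb10, which replace the constitutive catalytic subunits Psmb5, Psmb6 and Psmb7 and so form the immunoproteasome. Nlrc5 is a transcriptional coactivator that acts on class I promoters through a conserved module of SXY elements, and B2m is the invariant light chain of every class I molecule.

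In the deposited table, 7 of the 10 genes lie on chromosome 17 (mm10), 2 on chromosome 8 (Psmb10, 105935735 to 105938444, and Nlrc5, 94434356 to 94527272) and B2m on chromosome 2 (122147686 to 122153083). Psmb9 (34181987 to 34187764, minus strand), Tap1 (34187553 to 34197225), Psmb8 (34197721 to 34201454) and Tap2 (34203527 to 34216321) are neighbours within 34335 bases of the MHC. Tapbp (33915899 to 33929292), H2-K1 (33996017 to 34000347, minus strand) and H2-D1 (35262730 to 35267499) lie on either side of them. Psmb9 and Tap1 overlap by 212 exonic bases on opposite strands. The libraries were made by a strand-specific kit, but the strand setting used for counting is not given in the sources used here, so reads of that stretch may have been given to either gene.

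Sequences before the transcription start are shown for both heavy chains, B2m and Tap1. These genes shared the highest library of each group, as did Tapbp and Psmb9, whose sequences are not printed. The heavy chains and B2m also share a spaced pair of letters, which the Tap1 window lacks. Each is the 250 bases before the start site in RefSeq on GRCm38.p6, read 5′ to 3′ on the gene's own strand. For H2-K1, which has several start sites in that table, the more downstream one was used.
H2-K1, chr17:34000334-34000583, minus strand: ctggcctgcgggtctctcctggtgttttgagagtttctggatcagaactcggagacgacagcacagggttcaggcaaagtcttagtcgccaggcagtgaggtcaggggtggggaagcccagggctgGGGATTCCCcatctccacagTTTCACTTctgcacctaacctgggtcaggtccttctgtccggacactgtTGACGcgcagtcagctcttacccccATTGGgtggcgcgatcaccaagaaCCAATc
H2-D1, chr17:35262844-35263093, plus strand: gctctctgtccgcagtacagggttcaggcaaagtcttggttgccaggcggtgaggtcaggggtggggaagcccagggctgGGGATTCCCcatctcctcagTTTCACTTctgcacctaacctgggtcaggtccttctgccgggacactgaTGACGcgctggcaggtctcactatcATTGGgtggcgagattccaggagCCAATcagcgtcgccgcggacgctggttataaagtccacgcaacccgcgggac
B2m, chr2:122147437-122147686, plus strand: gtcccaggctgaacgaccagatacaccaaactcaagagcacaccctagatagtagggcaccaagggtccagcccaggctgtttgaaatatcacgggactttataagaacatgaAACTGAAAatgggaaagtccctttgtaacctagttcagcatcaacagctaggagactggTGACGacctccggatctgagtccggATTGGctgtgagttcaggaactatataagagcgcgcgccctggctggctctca
Tap1, chr17:34187306-34187555, plus strand: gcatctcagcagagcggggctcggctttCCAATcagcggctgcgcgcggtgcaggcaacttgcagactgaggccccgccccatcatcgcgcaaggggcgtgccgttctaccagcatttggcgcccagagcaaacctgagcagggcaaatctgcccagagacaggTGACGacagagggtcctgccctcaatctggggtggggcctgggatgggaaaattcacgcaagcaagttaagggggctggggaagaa
Capitals mark letters matching 5 motifs searched on both strands in windows of 300 bases (250 before and 50 after a start). They are AANNGAAA, a core that interferon regulatory factors bind (in 23.9% of all 32851 windows), TTCNNNGAA, the palindrome that STAT factors bind (8.3%), GGGATTCCC, an NF-kB type sequence (0.353%), TGACG, the core of cyclic AMP response elements (20.8%), and CCAAT (37.4%).

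Windows were found for 8 of the 10 genes. H2-K1, H2-D1 and B2m each held TGACG followed, 20 bases later, by ATTGG, the reverse complement of CCAAT. This spaced pair occurs in 31 of all windows (0.0944%), belonging to 27 genes, among them the class I-like gene H2-M3. GGGATTCCC was in the H2-K1 and H2-D1 windows, and in both it was followed by TTTCACTT, an AANNGAAA match on the opposite strand. The B2m window held AACTGAAA. The Psmb8 window held TTCCCAGAA, 97 bases before the start, and no other gene of the 8 held a TTCNNNGAA match. The Tap1 and Psmb9 windows share 275 bases, since both genes start in the same stretch and run in opposite directions. The Psmb10 window held none of the 5 motifs. A match says only that these letters are present, and the NF-kB and interferon regulatory factor letters and the spaced pair were chosen after the windows had been seen.

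The libraries held 26959662 to 36113905 counts, no pair of libraries was identical, and lung markers were high in all 9, with the surfactant gene Sftpc at 6639 to 11407 CPM (counts per 1e+06, scaled by TMM). Although every mouse is labelled male, chromosome Y genes had 6, 7 and 9 reads in the controls but 7511 to 10918 elsewhere. Each comparison with control thus also sets libraries lacking chromosome Y transcripts against libraries holding them, and the treatment and that difference cannot be told apart. Whole lung was sequenced, so a change in the number of cells of a type and a change in RNA per cell cannot be told apart either.

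Measured per transcript length, B2m was the most abundant of the 10 genes in every library, at 3300 to 5738 TPM (transcripts per 1e+06). H2-K1 followed at 809 to 1562 TPM and H2-D1 at 318 to 539 TPM, and these 3 ranges do not overlap. Psmb10 (78.2 to 114 TPM) and Tapbp (62.3 to 104 TPM) came next and overlapped each other. Psmb8 (33.2 to 77.0 TPM), Tap2 (29.2 to 46.3), Nlrc5 (17.9 to 45.5), Psmb9 (20.1 to 44.5) and Tap1 (16.6 to 41.5) formed a group of overlapping levels at the bottom. Of the catalytic subunits, Psmb8 was below its constitutive counterpart Psmb5 (99.6 to 121 TPM) in all 9 libraries, while Psmb10 was above Psmb7 (65.0 to 96.7 TPM) in all 9.

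On day 5, none of the 10 genes passed the test between LPS and control lungs, and none passed between LPS+RSBD and LPS lungs. In LPS against control, 0 of 10 were called by edgeR at an adjusted p of 0.05, where 17.4% of all 15636 genes tested were called (8.79% higher and 8.63% lower). The point estimates of 9 of the 10 were nevertheless above 0 (49.4% of all genes were), with a median log2 fold change of 0.43 beside -0.01 over all genes. At an unadjusted p under 0.05 there were 4 (Psmb8, Psmb9, Psmb10 and Tapbp), beside 34.5% of all genes. DESeq2 called these 4 genes, where it called 3790 of 18407 genes (1988 higher and 1802 lower). Limma on log2 TPM called 0, beside 1532 to 2052 of all genes. Psmb8 and Psmb9 had the highest estimates, and H2-K1, Tap2 and H2-D1 the lowest, as the plot of fold changes shows.

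**Figure D1:**
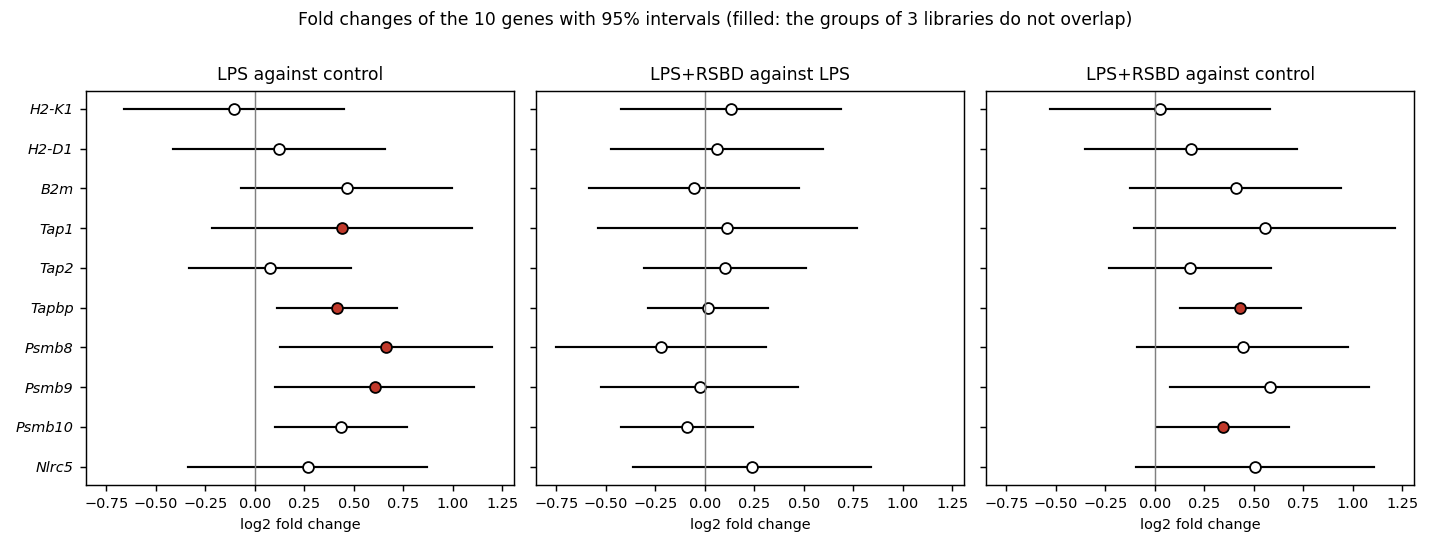
Log2 fold change of each of the 10 genes (points) with its 95% interval (lines) in the 3 comparisons, from the edgeR fit to all 9 libraries; a filled point marks a gene whose groups of 3 libraries do not overlap. In LPS against control the intervals of Tapbp, Psmb8, Psmb9 and Psmb10 lie above 0 before adjustment, and in LPS+RSBD against LPS all 10 intervals include 0.

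The 3 immunoproteasome subunits had higher mean levels in LPS than in control lungs, but none passed after adjustment. Psmb8 measured 29.9, 28.3 and 43.4 CPM in control libraries 1 to 3, 59.3, 53.9 and 47.9 in LPS and 31.8, 61.2 and 45.1 in LPS+RSBD libraries. All LPS values exceeded all control values, while LPS+RSBD 1 lay within the control range. Its log2 fold change in LPS against control was 0.66 ± 0.24 (SE, adjusted p = 0.0827, range over 18 alternatives 0.0248 to 0.214). Psmb9 measured 21.1, 19.7 and 24.02 CPM in control, 26.0, 39.2 and 33.4 in LPS and 22.1, 41.9 and 33.0 in LPS+RSBD libraries. Again LPS and control did not overlap and LPS+RSBD 1 fell among the control values. Its log2 fold change in LPS against control was 0.61 ± 0.22 (adjusted p = 0.0884, range 0.0325 to 0.264). Psmb10 measured 60.3, 51.7 and 55.5 CPM in control, 59.7, 86.3 and 80.8 in LPS and 60.7, 82.6 and 69.6 in LPS+RSBD libraries. LPS 1 fell within the control range, and the change was 0.44 ± 0.15 (adjusted p = 0.0703, range 0.0179 to 0.227). Psmb10 was called without LPS 1 (0.58), Psmb8 and Psmb9 were called without LPS+RSBD 1 (0.67 and 0.61), and Psmb8 was also called without LPS+RSBD 2 (0.67).

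The peptide transporter and its partner differed among themselves. Tapbp measured 92.2, 89.7 and 108 CPM in control, 119, 143 and 126 in LPS and 119, 159 and 114 in LPS+RSBD libraries. It was the member with the lowest adjusted p, with both LPS-treated groups wholly above control and a log2 fold change of 0.42 ± 0.14 in LPS (adjusted p = 0.0605, range 0.0283 to 0.195; called without LPS+RSBD 2, 0.42). Tap1 measured 30.8, 30.9 and 43.3 CPM in control, 43.5, 54.2 and 44.8 in LPS and 32.4, 78.6 and 43.2 in LPS+RSBD libraries. LPS and control were separated only narrowly, by control 3 and LPS 1, and the change of 0.44 ± 0.29 did not pass (adjusted p = 0.317). Tap2 measured 48.0, 45.4 and 72.3 CPM in control, 63.2, 58.6 and 52.8 in LPS and 51.4, 71.8 and 64.3 in LPS+RSBD libraries. Control 3 held its highest value of all 9 libraries, and the change was 0.08 ± 0.18 (adjusted p = 0.802).

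The class I chains themselves overlapped between groups. H2-K1 measured 667, 769.8 and 1198 CPM in control, 647, 939 and 863 in LPS and 679.8, 1098 and 906 in LPS+RSBD libraries, with its highest value in control 3. Its log2 fold change was -0.11 ± 0.25 (95% interval -0.66 to 0.45, adjusted p = 0.796). H2-D1 measured 375, 358 and 591 CPM in control, 403, 568 and 471 in LPS and 374, 629 and 501 in LPS+RSBD libraries, and the change was 0.12 ± 0.24 (interval -0.41 to 0.66, adjusted p = 0.752). B2m measured 1787, 1574 and 2151 CPM in control, 1904, 2967 and 2733 in LPS and 1631, 2887 and 2799 in LPS+RSBD libraries. In B2m, LPS 1 lay below control 3, and the change of 0.46 ± 0.24 did not pass (interval -0.07 to 1.00, adjusted p = 0.198). The heavy chains have close relatives, so their reads can be shared out among genes. Of all stretches of 50 bases in the H2-K1 and H2-D1 transcripts, 8.79% and 14.3% occur in other genes, mostly of the class I family, and at 150 bases, the length of a read, 0% and 1.79%. H2-Q1, the relative that shares most with H2-D1, had 0 reads in LPS 2 and LPS+RSBD 3 and 78 to 123 reads in the other libraries.

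Nlrc5 measured 59.4, 66.6 and 87.2 CPM in control, 88.2, 85.0 and 83.3 in LPS and 61.4, 145 and 96.3 in LPS+RSBD libraries. The LPS libraries lay within 1.06-fold of each other, while the LPS+RSBD libraries spanned 2.37-fold, and the change in LPS against control was 0.27 ± 0.27 (adjusted p = 0.514). Over all 10 genes, the groups of LPS and control did not overlap in CPM for 4, all higher in LPS (Tapbp, Tap1, Psmb8 and Psmb9). Of all genes, 38% did not overlap in either direction and 18.6% did so with LPS higher. In TPM, LPS and control overlapped for Tapbp, Tap1 and Psmb8.

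**Figure D2:**
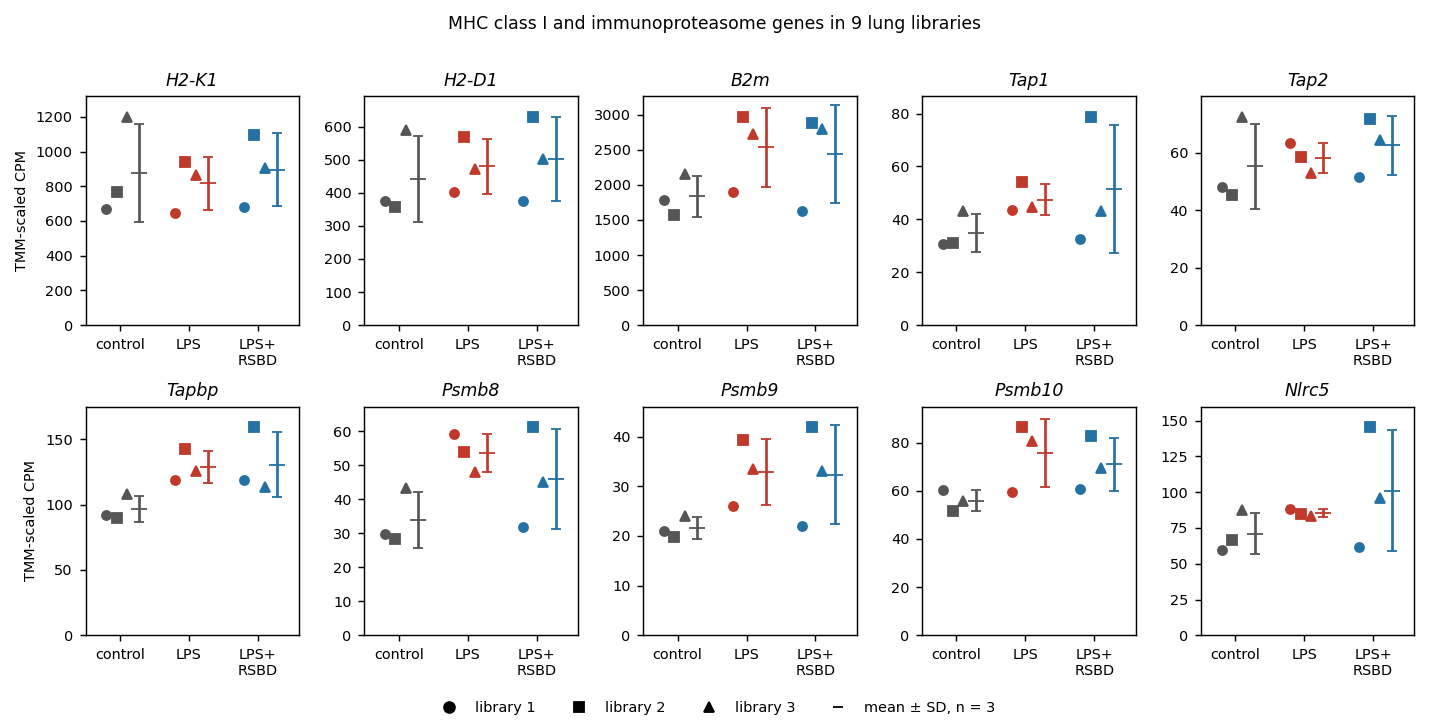
TMM-scaled CPM of the 10 genes in the 9 lung libraries (circle, square and triangle for libraries 1, 2 and 3), with the mean ± SD of each group of 3. The square of LPS+RSBD 2 is the highest of its group in all 10 panels, at 78.6 CPM for Tap1 and 145 CPM for Nlrc5.

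Adding RSBD to LPS was compared next, as the comparison of the treatment. In LPS+RSBD against LPS, 0 of 10 genes were called, and 0% of all genes were. None of the 10 had an unadjusted p under 0.05, beside 9.42% of all genes, and neither DESeq2 nor limma called any of them. The groups overlapped for all 10, and 12.6% of all genes did not overlap (7.18% with LPS+RSBD higher and 5.46% lower). Estimates were small and of both signs, 6 of 10 above 0 (52.4% of all genes) with a median of 0.04 (0.01 over all genes). The lowest was Psmb8 at -0.22 ± 0.24 (95% interval -0.75 to 0.31, adjusted p = 0.822) and the highest Nlrc5 at 0.24 ± 0.27 (-0.36 to 0.84, adjusted p = 0.831). Tapbp had the tightest interval, 0.02 ± 0.14 (-0.29 to 0.32). Those of H2-K1 (0.13, -0.42 to 0.69), B2m (-0.06, -0.59 to 0.48) and Tap1 (0.11, -0.54 to 0.77) leave room for changes of either sign, so a p that misses the threshold does not show equal levels. Without LPS+RSBD 2 the median of the 10 genes was -0.17 and none was above 0, and without LPS+RSBD 1 the median was 0.21 and 9 were above 0.

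In LPS+RSBD against control, again 0 of 10 genes were called, where 3.7% of all genes were (1.89% higher and 1.8% lower). All 10 estimates were above 0 (51.9% of all genes), with a median of 0.42 beside 0.01 over all genes. At an unadjusted p under 0.05 there were 3 (Tapbp, Psmb9 and Psmb10), beside 22.7% of all genes. That count was 7 without LPS+RSBD 1 (median of the 10 genes 0.56), 1 without LPS+RSBD 2, LPS+RSBD 3 or control 2, 2 without control 1 or LPS 3 and 4 without control 3. Tapbp had the lowest adjusted p, at 0.43 ± 0.14 (adjusted p = 0.102, range over 18 alternatives 0.0469 to 0.291). DESeq2 called Tapbp and no other of the 10, where it called 1699 of 18407 genes, while limma called 0. Psmb9 stood at 0.58 ± 0.22 (adjusted p = 0.164) and Tap1 at 0.55 ± 0.29 (adjusted p = 0.294). Only Tapbp and Psmb10 did not overlap in CPM between these groups, both higher in LPS+RSBD. Of all genes, 30.4% did not overlap and 15.4% did so with LPS+RSBD higher. Psmb10 was separated only narrowly (60.7 CPM in LPS+RSBD 1, 60.3 in control 1). In TPM both genes overlapped, Psmb10 with 82.6 in LPS+RSBD 1 and 87.1 in control 1. Tapbp had 73.9 TPM in LPS+RSBD 3 and 78.2 in control 3. Without LPS+RSBD 2 the median of the 10 was 0.17. The comparisons share the control or the LPS libraries, so their estimates are not independent of each other.

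Within a group, the levels of the 10 genes mostly shared their highest and lowest libraries. Of the control libraries, control 3 was highest for 9 of the 10 genes, the exception being Psmb10, whereas it was highest for 33.5% of all genes. Of the LPS libraries, LPS 2 was highest for 7 (29.2% of all genes) and LPS 1 lowest for the same 7 (41.5%). Of the LPS+RSBD libraries, LPS+RSBD 2 was highest for all 10 (32.8%) and LPS+RSBD 1 lowest for 9 (29.8%), all but Tapbp. Averaged over the 10 genes, the log2 level relative to the mean of all libraries was -0.36, -0.40 and 0.07 in control, -0.03, 0.27 and 0.11 in LPS and -0.29, 0.51 and 0.13 in LPS+RSBD libraries. LPS+RSBD 1 was thus at the level of controls 1 and 2, and LPS+RSBD 2 was the highest of all 9.

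This spread between mice of one group was large beside that of other genes. The pooled within-group SD of the log2 level was 0.19 for Tapbp, 0.22 for Psmb10, 0.27 for Tap2 and 0.33 to 0.42 for the other 7 genes, highest for Tap1. The median over all genes of at least 10 CPM was 0.145, and the 10 genes stood at the 69.4 to 95.2 percentiles. In LPS+RSBD lungs the highest library exceeded the lowest 2.42-fold for Tap1 and 2.37-fold for Nlrc5, but 1.36-fold for Psmb10. In LPS lungs no member spanned more than 1.56-fold (B2m).

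**Figure D3:**
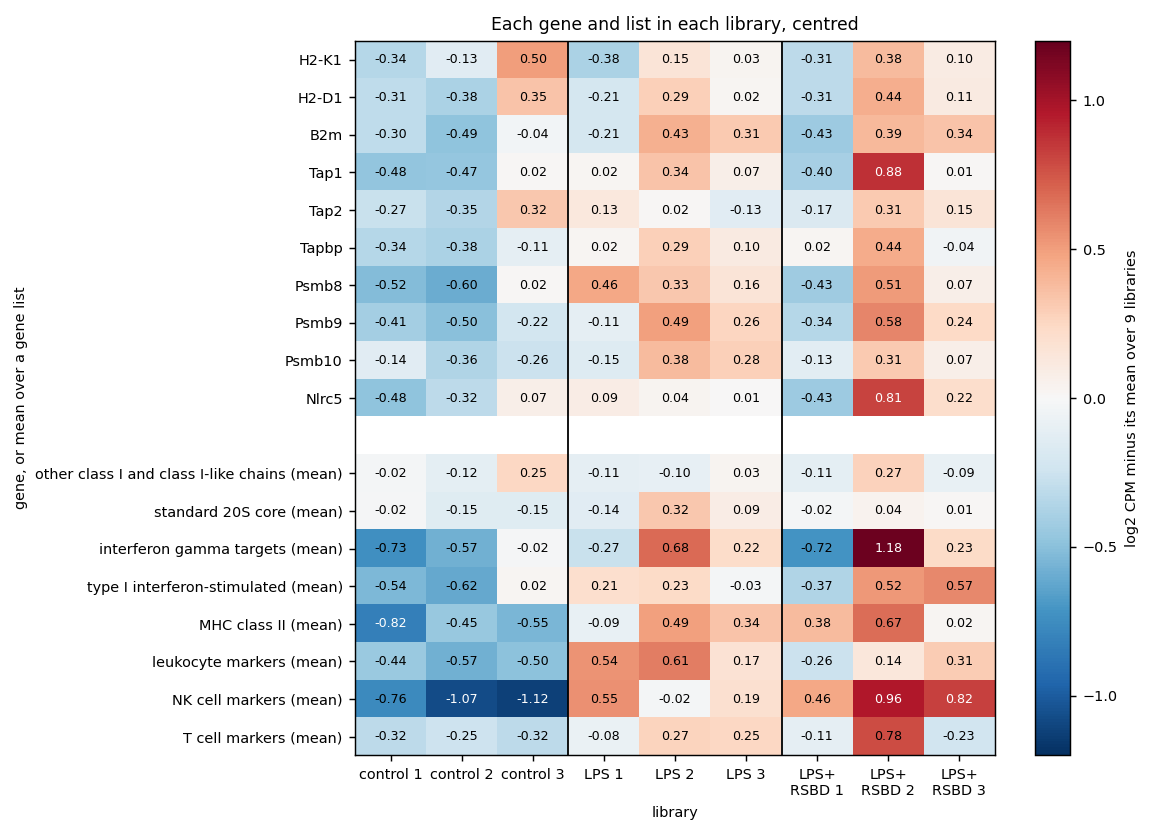
Log2 CPM of each gene (rows, top) and mean over gene lists (rows, bottom) in each library (columns), minus the mean over the 9 libraries; red is above and blue below that mean. LPS+RSBD 2 is red and controls 1 and 2 are blue for all 10 genes, and the row of interferon gamma targets runs from -0.73 in control 1 to 1.18 in LPS+RSBD 2.

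Genes known to respond to interferon gamma had the same highest libraries. Their list (19 genes, such as guanylate-binding proteins) averaged -0.73, -0.57 and -0.02 in control, -0.27, 0.68 and 0.22 in LPS and -0.72, 1.18 and 0.23 in LPS+RSBD libraries on the same centred log2 scale, with control 3, LPS 2 and LPS+RSBD 2 again the highest of their groups. The list of interferon gamma signalling genes also had these highest libraries, with control 3 at -0.087 beside control 2 at -0.119. The list of 19S proteasome subunits had them too, but its margins were narrow. Its mean for control 3 was -0.015, beside -0.017 for control 1. For LPS 2 it was 0.131, beside 0.127 for LPS 3, and for LPS+RSBD 2 it was -0.006, beside -0.034 for LPS+RSBD 1. Type I interferon-stimulated genes were likewise highest in control 3 and LPS 2, but LPS+RSBD 3 (0.57) exceeded LPS+RSBD 2 (0.52). Ifng itself was low, at 0.281, 0.414 and 0.391 CPM in control, 0.743, 0.849 and 0.509 in LPS and 0.658, 1.84 and 0.545 in LPS+RSBD libraries. All LPS values were above all control values, yet the change of 0.94 ± 0.56 did not pass (adjusted p = 0.256). Irf1, a factor that induces Tap1 and Psmb9, differed little, at -0.08 ± 0.16 (adjusted p = 0.762). Of 12 lists of cell type markers, 1 had the same highest library in all 3 groups, that of monocytes and recruited macrophages, whose centred mean was -0.055 in control 3, 0.47 in LPS 2 and 0.63 in LPS+RSBD 2. T cell markers (5 of 6 were in the table) were highest in control 2 (-0.25), LPS 2 (0.27) and LPS+RSBD 2 (0.78). Neutrophil markers were highest in control 3 (0.39), LPS 1 (2.08) and LPS+RSBD 3 (0.60). None of the markers found was at 0 in any library, and their part in the order of the libraries was not tested.

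The 6 genes outside the set whose centred log2 levels over the 9 libraries lay nearest to the average of the 10 were H2-T23, Irf9, Parp9, H2-T22, Dtx3l and Slc29a3. The measure was the root mean square difference, taken over 12387 genes of at least 5 CPM. It was 0.10 for H2-T23, the mouse Qa-1 class I-like chain, 0.11 for Irf9, a subunit of the interferon-activated complex ISGF3, and 0.12 for Parp9 and for H2-T22. Dtx3l, the partner of Parp9, had 0.13 and Slc29a3, a nucleoside transporter, 0.14. The 10 genes themselves lay between 0.12 (H2-D1) and 0.22 (H2-K1) from their own average, and the median over all candidates was 0.34. H2-T23 measured 219, 191 and 324 CPM in control, 277, 373 and 305 in LPS and 234, 362 and 337 in LPS+RSBD libraries, with the same order within each group as H2-D1. The likeness rests on 9 libraries and describes them only.

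The balance between immunoproteasome and constitutive subunits was taken as the log2 ratio of TPM within each library. Psmb8 to Psmb5 was -1.81, -1.80 and -1.13 in control, -0.38, -1.06 and -1.29 in LPS and -1.48, -0.60 and -1.04 in LPS+RSBD libraries. The groups overlapped, and LPS exceeded control by 0.67 (exact permutation p = 0.2, 2-sided). Psmb10 to Psmb7 was 0.35, 0.05 and 0.35 in control, 0.19, 0.23 and 0.18 in LPS and 0.02, 0.62 and 0.39 in LPS+RSBD libraries, with no shift between LPS and control (-0.05, exact permutation p = 0.7). Psmb9 to Psmb6 was -1.45, -1.62 and -1.31 in control, -0.46, -0.58 and 1.56 in LPS and -1.24, -0.35 and -0.70 in LPS+RSBD libraries. LPS exceeded control by 1.63 and LPS+RSBD exceeded control by 0.70, both without overlap (exact permutation p = 0.1 each, the smallest that 3 against 3 libraries can give). The high value of LPS 3 came with a low Psmb6, which had 149 reads (5.42 CPM) there against 16.9 to 31.2 CPM in the other 8 libraries. The mean of the 3 ratios was 0.75 higher in LPS than in control (exact permutation p = 0.1), 0.31 lower in LPS+RSBD than in LPS (p = 0.5 by the same exact test) and 0.44 higher in LPS+RSBD than in control (exact p = 0.2). Without the Psmb9 to Psmb6 ratio, a choice made after the data were seen, these differences were 0.31, 0.01 and 0.31.

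**Figure D4:**
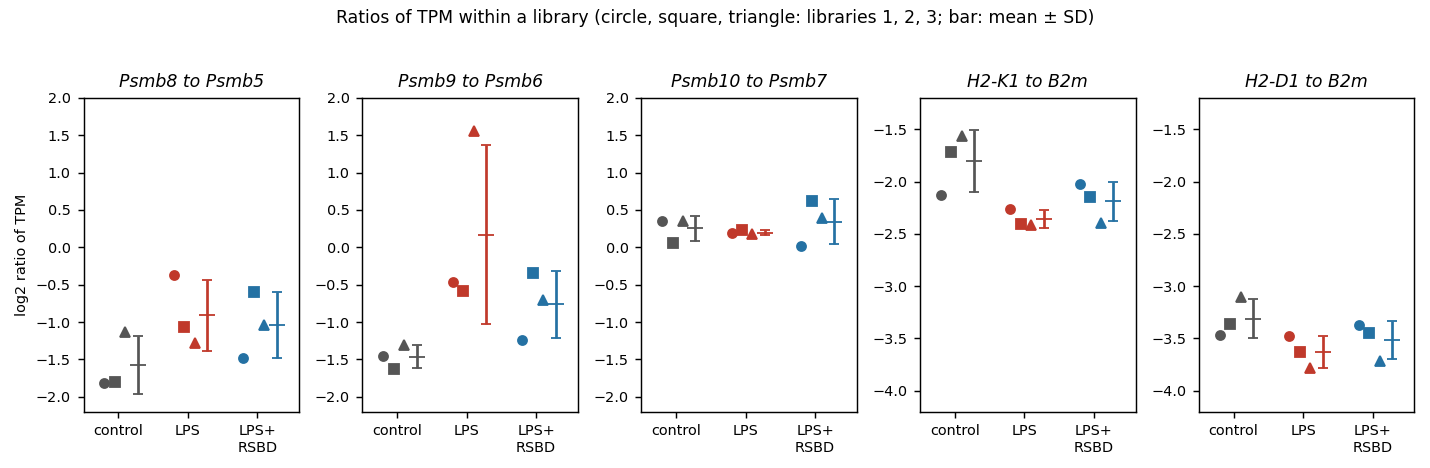
Log2 ratio of TPM within each library (circle, square and triangle for libraries 1, 2 and 3, bars for mean ± SD of 3) for immunoproteasome over constitutive subunits and for class I heavy chains over B2m. The Psmb9 to Psmb6 ratio of LPS 3 stands apart at 1.56, and H2-K1 to B2m is lower in all LPS than in all control libraries.

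Class I heavy chains were set against their light chain B2m in ratios that were chosen after the data were seen. H2-K1 to B2m was -2.13, -1.71 and -1.57 in control, -2.26, -2.40 and -2.41 in LPS and -2.03, -2.15 and -2.40 in LPS+RSBD libraries. The LPS libraries were all below the control libraries, by 0.56 on average (exact permutation p = 0.1). H2-D1 to B2m was lower by 0.32 in the same comparison, without overlap (exact permutation p = 0.1), though control 1 (-3.47) and LPS 1 (-3.48) nearly met. H2-K1 to H2-D1 and Tap1 to Tap2 overlapped between LPS and control. Over the 24 tests of ratios the lowest Benjamini-Hochberg adjusted p was 0.369, so none passed.

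Other genes of the pathway were counted in fixed lists, first for LPS against control, where 8.79% of all genes were called higher and 8.63% lower. Near that background were the shares called higher of class I-like chains (12.5%), trimming and loading factors (6.67%), 19S subunits (5.56%), interferon gamma signalling genes (10%) and type I interferon-stimulated genes (9.09%). Of 16 other class I and class I-like heavy chains 2 were called higher, 0 lower and 14 not called (median log2 change 0.12). Their estimates were of both signs, 9 of 16 above 0. Those of the H2-Q genes tested were all below 0 and none was called, a family picked out after its values were seen. Hfe, a class I-like protein that regulates iron uptake, rose from 40.7, 34.6 and 32.7 to 63.8, 64.7 and 62.1 CPM (0.82 ± 0.10, adjusted p = 0.00304) and was also higher in LPS+RSBD than in control (0.68 ± 0.10, adjusted p = 0.0136). Cd1d1, which presents lipids to NKT cells, rose by 0.55 ± 0.16 (adjusted p = 0.0449), a call lost without any one control library, LPS 2, LPS 3 or LPS+RSBD 1 (highest adjusted p = 0.159) and in limma and with the replicate block (up to 0.112). Of 15 peptide trimming and loading factors 1 was higher and 2 were lower (median -0.05). Hspa5, an endoplasmic reticulum chaperone, fell from 551, 647 and 633 to 307, 389 and 457 CPM (-0.67 ± 0.15, adjusted p = 0.0171). Without control 2, control 3 or LPS 2 this call was lost (up to an adjusted p of 0.0634). Npepps, a cytosolic aminopeptidase, fell by 0.43 ± 0.10 (adjusted p = 0.0204), and dropping control 2, control 3, LPS 2 or LPS 3 ended the call (up to 0.0786). Blmh, bleomycin hydrolase, a cytosolic peptidase, rose by 0.33 ± 0.10 (adjusted p = 0.0421, lost without any one of the control or LPS libraries, LPS+RSBD 1 or LPS+RSBD 2, highest 0.118, and in limma, with the replicate block or in a fit of only these groups, up to 0.19).

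The rest of the proteasome was counted in the same comparison. Of 14 constitutive core subunits 4 were higher and 0 lower (median 0.32). They were Psma2 (0.40 ± 0.10, adjusted p = 0.0235), Psma5 (0.42 ± 0.10, adjusted p = 0.0266), Psmb7 (0.43 ± 0.13, adjusted p = 0.0464) and Psmb2 (0.37 ± 0.12, adjusted p = 0.0498). Dropping control 2, control 3, LPS 2 or LPS 3 ended the calls of Psma2 and Psma5 (adjusted p up to 0.0844 and 0.102). Those of Psmb7 and Psmb2 were lost without any one control library, LPS 2, LPS 3, LPS+RSBD 1 or LPS+RSBD 2 (highest 0.165 and 0.162), and also under upper quartile scaling, in limma, in a fit of only these groups and with the replicate block (up to 0.0785 and 0.0865), that of Psmb2 also with no filter. Psmb5 (0.08 ± 0.12) and Psmb6 (-0.58 ± 0.46) did not pass. Of 9 activator and assembly genes 0 were called by edgeR (median 0.22). Among them Psme1 and Psme2, the PA28 activator that interferon gamma induces, stood at 0.34 ± 0.14 (adjusted p = 0.12) and 0.46 ± 0.17 (adjusted p = 0.086) and were called without LPS 1 (0.49 and 0.63). Of 18 subunits of the 19S regulatory particle Psmd8 was higher (0.39 ± 0.10, adjusted p = 0.0258, or up to 0.0965 when control 2, control 3 or LPS 2 was dropped and 0.101 in limma and with the replicate block) and 17 were not called (median 0.08).

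Of 20 genes of interferon gamma signalling and class I transcription factors 2 were higher and 0 lower (median 0.11). Ciita, the class II counterpart of Nlrc5, rose from 44.9, 49.2 and 54.8 to 69.1, 94.0 and 76.6 CPM (0.69 ± 0.19, adjusted p = 0.0393, lost without any one control library, LPS 2 or LPS 3, highest 0.132, and in limma with no filter, 0.0764). Ifngr2, a chain of the interferon gamma receptor, rose by 0.34 ± 0.09 (adjusted p = 0.0352, lost without any one control library, LPS 2 or LPS 3, highest 0.123, and in limma and with the replicate block, up to 0.127). Of the 19 interferon gamma targets 3 were higher (median 0.63), the guanylate-binding proteins Gbp9 (0.77 ± 0.20) and Gbp4 (1.36 ± 0.37) and the tryptophan-degrading enzyme Ido1 (1.54 ± 0.47; adjusted p = 0.0305, 0.0365 and 0.0489). Gbp9 and Gbp4 lost their calls without any one of the control or LPS libraries, Gbp4 also without LPS+RSBD 3, and Ido1 without any one control library, LPS 2, LPS 3, LPS+RSBD 2 or LPS+RSBD 3 (highest 0.0964, 0.108 and 0.18). All limma fits ended the calls of Gbp4 and Ido1, limma with no filter that of Gbp9, and edgeR with no filter that of Gbp4 (up to 0.0702, 0.0785 and 0.0779 for Gbp4, Ido1 and Gbp9). Of 22 type I interferon-stimulated genes 2 were higher (median 0.40), Bst2, or tetherin (0.62 ± 0.18), and Xaf1 (0.65 ± 0.20; adjusted p = 0.0465 and 0.0489). Bst2 lost its call without any one control library, LPS 2, LPS 3 or LPS+RSBD 3, and Xaf1 without any one of the control or LPS libraries or LPS+RSBD 3 (highest 0.146 and 0.147). Both were also lost in limma, with no filter and with the replicate block, and Xaf1 under RLE scaling (up to 0.088 and 0.105).

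Genes of class II presentation and receptors that read class I molecules held further calls, with 55.6% and 50% of each list called higher. Of 9 genes of MHC class II and its peptide loading 5 were higher and 0 lower in LPS against control (median 0.90). H2-DMa, an exchange factor for class II peptides, measured 15.9, 16.3 and 20.2 CPM in control, 27.8, 42.2 and 33.3 in LPS and 35.3, 41.9 and 28.9 in LPS+RSBD libraries. H2-Oa, a chain of a modulator of that exchange, rose by 1.13 ± 0.24 (adjusted p = 0.0147, or 0.0552 without control 3). The class II chain gene H2-Aa was higher by 1.01 ± 0.25 (adjusted p = 0.0296). Dropping any control library, LPS 2 or LPS 3 ended its call (up to 0.0957), as did limma with no filter (0.0507). Of 14 tested receptors that read class I molecules, mostly of T and NK cells, 7 were higher and 0 lower (median 1.21). Their list also holds Pirb and Lilrb4a, which myeloid cells carry, and Pirb is 1 of the 7 (1.39 ± 0.40, adjusted p = 0.0448). Klra3, a Ly49 receptor, rose by 2.58 ± 0.40 (adjusted p = 0.00528) and Klrd1, the CD94 chain that pairs with NKG2 receptors, by 1.08 ± 0.20 (adjusted p = 0.00921). Further Ly49 genes, Klra7 (2.21 ± 0.45, adjusted p = 0.0127) and Klra8 (1.87 ± 0.46, adjusted p = 0.0251), were called too, Klra7 not without control 2 (0.0522) and Klra8 not without control 2, control 3, LPS 1 or LPS 2 (highest 0.0715) or in limma with no filter (0.0554). Reads of Ly49 genes may be shared out within that family of close copies.

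Markers of 12 cell types were counted in the same comparison. Of 6 NK cell markers 4 were higher, with summed levels of 19.2 to 24.5 CPM in control, 42.2 to 62.4 in LPS and 57.4 to 89.97 in LPS+RSBD libraries. Of 6 markers of leukocytes at large 5 were higher, with sums of 896 to 978 CPM in control, 1367 to 1927 in LPS and 1058 to 1597 in LPS+RSBD libraries. Of 6 alveolar macrophage markers 4 were higher, with sums of 1105 to 1478, 1749 to 3593 and 751.3 to 1606 CPM. Of 5 T cell markers found 0 were called by edgeR, with sums of 75.5 to 80.5, 89.4 to 112 and 80.1 to 164 CPM, and 3 of them had an unadjusted p under 0.05 (Cd3g, Cd3d and Cd3e). Of 5 B cell markers 0 were called by edgeR, and 0 had an unadjusted p under 0.05. Of 6 markers each, 2 were higher for monocytes and recruited macrophages, 1 for neutrophils, 2 for endothelium and 1 for fibroblasts, 2 were lower for airway epithelium, and 0 were called by edgeR for alveolar epithelium, where 0 had an unadjusted p under 0.05. Of 6 dendritic cell markers 2 were higher (Ccr7 and Flt3) and 2 lower (Clec9a and Zbtb46). No marker of these lists was at 0 in any library, and their part in the levels of the 10 genes was not tested.

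Between LPS+RSBD and LPS lungs, 0 genes of these lists were called by edgeR, as 0% of all genes were. The median of the constitutive core was -0.16, with 1 of 14 estimates above 0, that of the interferon gamma targets 0.16 and that of class II 0.12. Between LPS+RSBD and control lungs, 1.89% of all genes were called higher and 1.8% lower. Of the lists, 3 of 9 class II genes and 7 of 14 receptors were called higher. Hfe, Blmh and Ciita were higher and Npepps was lower. Of the cell type markers, 4 of 6 for NK cells were higher (Ncr1, Klrb1c, Gzma and Prf1). Abcg1, Ccr7 and Flt3 were higher too, and Clec9a was lower. In the constitutive core, the activators and the 19S particle 0 genes were called. The interferon gamma targets and the type I interferon-stimulated genes also had 0, which for lists of these lengths is near the shares of all genes. Estimates of the interferon gamma targets were nevertheless above 0 for 19 of 19 (median 0.74). Those of the type I interferon-stimulated genes were above 0 for 22 of 22 (median 0.63), beside 51.9% of all genes. Ciita was higher by 0.87 ± 0.19 (adjusted p = 0.0424), while its class I counterpart Nlrc5 stood at 0.51 ± 0.27 (adjusted p = 0.294). The difference between these 2 genes was not tested.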

How the data were processed

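Lung RNA of 9 mice (3 per group) was analysed. Per the labels' protocols, mRNA was enriched and strand-specific libraries were read as pairs of 150 bases. The submitters' processing notes list HISAT2 2.2.1, fastp 0.23.2, DESeq2 1.38.3 and StringTie 2.2.0, and mm10 (GRCm38), and which of them counted reads is not given in the sources used here. Estimated counts (expected counts) per gene were deposited by the authors, whole in all 197370 cells, so rounding changed nothing. TPM for the same genes were also deposited. Columns named RS were matched to the LPS+RSBD samples by their number.

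Counts were fitted in R 4.3.3 with edgeR 4.0.16 (TMM, filterByExpr with minimum count 10 and minimum total 15, robust quasi-likelihood F test, 2-sided) over all 9 libraries with group as the factor, and p was adjusted by Benjamini-Hochberg over 15636 genes at a threshold of 0.05. Total counts of 26959662 to 36113905 gave a median SE of 0.15 on the log2 scale at a common biological coefficient of variation of 0.189. The fit was tested on simulated data in which every gene had the same spread. It called 6 of 100 genes with a log2 change of 0.5 and 77 of 100 with a change of 1. Of 15345 unchanged genes it called 5. A gene of the simulated spread that was not called may thus still have changed by about 0.5. The 10 genes differed in spread, with a within-group SD of the log2 level from 0.19 (Tapbp) to 0.42 (Tap1). The shares called in the simulation therefore do not apply to each of them. In LPS against control the intervals were -0.22 to 1.10 for Tap1 and -0.07 to 1.00 for B2m. A missed change of these genes may thus be larger than 0.5. Ratios of TPM were compared by exact permutation over libraries. Centred levels used log2 CPM with a prior count of 2.

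The members and gene lists were chosen with earlier results of these data known. Named are all 10 members, up to 4 genes per list with the smallest p, catalytic and activator subunits, Ifng, Irf1, Ciita and the 6 genes nearest in profile (a further gene of this rule is not reported here); H2-Q1, H2-M3, Pirb, Lilrb4a and Sftpc were added after their values were seen, as were ratios other than those of the 3 subunit pairs. Of the list genes, 6 (H2-T10, H2-Bl, Cxcl11, Mx1, Mx2 and Trac) were not analysed here. The filter on low counts left 16 of 17 class I-like chains and 14 of 15 receptors for the test. Alternatives were DESeq2 1.42.0, RLE and upper quartile scaling, no filter, limma 3.58.1 on log2 TPM (pseudocount 1 or 0.1, keeping genes that reach 1 TPM in 3 libraries, or all expressed genes), a fit of only the groups compared, the replicate number as a block, and leaving out each library.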

Additional observations from a re-analysis of the deposited data

How the results depend on the processing

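The count of the 10 genes called in LPS against control was 4 with DESeq2, where 3790 of 18407 genes were called. It was 3 with only the libraries of the groups compared, where 2418 of 15336 were. When a library was left out it was 0 to 2 (1 without LPS 1, and 2 without LPS+RSBD 1 or without LPS+RSBD 2). For LPS+RSBD against control it was 1 with DESeq2, and otherwise 0, as in LPS+RSBD against LPS under all 18 alternatives. The mean ratio of immunoproteasome to constitutive subunits in LPS+RSBD against LPS turned to 0.0054 without the Psmb9 to Psmb6 pair, and its ranges over fits without a library were 0.59 to 0.90, -0.50 to -0.10 and 0.25 to 0.65 in the 3 comparisons.

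Signs turned only among estimates that were not called. Over the fits without a library, the range in LPS against control was -0.27 to 0.18 for H2-K1, -0.015 to 0.39 for H2-D1, -0.047 to 0.32 for Tap2, -0.0022 to 0.22 for Psmb5 and -0.15 to 0.0052 for Irf1. In LPS+RSBD against LPS it was -0.042 to 0.30 for H2-K1, -0.13 to 0.23 for H2-D1, -0.22 to 0.17 for B2m, -0.33 to 0.36 for Tap1, -0.0099 to 0.23 for Tap2, -0.15 to 0.10 for Tapbp, -0.26 to 0.19 for Psmb9, -0.24 to 0.015 for Psmb10 and -0.12 to 0.50 for Nlrc5. In LPS+RSBD against control it was -0.15 to 0.32 for H2-K1 and -0.012 to 0.45 for H2-D1. With limma on log2 TPM, at each pseudocount and filter, Psmb5 in LPS against control was -0.031, Tap1 in LPS+RSBD against LPS was -0.054 or, with pseudocount 0.1, -0.059, and H2-K1 in LPS+RSBD against control was -0.10. The cause was not tested.

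Over all genes, the 2723 calls of LPS against control became 3790 with DESeq2, 1532 with limma and no filter, and 786 to 2870 without a library. With limma on log2(TPM + 1) there were 2049, of which 711 were higher and 1338 lower, against 1374 and 1349. The 578 calls of LPS+RSBD against control became 1699 with DESeq2, 308, 307 and 137 with limma, 240 with the replicate block and 94 to 961 without a library. The 0 calls of LPS+RSBD against LPS became 153 with DESeq2, 0 or 1 with limma and 0 to 4 without a library.

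With the replicate number as a block, 0 of the 10 genes were called in each comparison. The ratio differences were 0.75, -0.31 and 0.44 (exact sign-flip permutation p = 0.25, 0.5 and 0.25, where 0.25 is the smallest that 3 pairs can give). Pairing by number leaves these differences unchanged by construction, so only the p could differ. Deviations from group means were also correlated across genes. For same-numbered libraries the correlations were 0.12, -0.04 and -0.10 for control with LPS. They were -0.12, 0.10 and 0.04 for control with LPS+RSBD and -0.12, -0.04 and -0.21 for LPS with LPS+RSBD. Those of differently numbered libraries ran from -0.16 to 0.19. Deviations from a mean of 3 libraries constrain each other, so these values do not settle whether the numbers pair samples. Of 41 other genes followed through the alternatives, 30 were called in LPS against control. Of these, 10 kept their call in all 18 alternatives (Hfe, H2-DMa, Klra3, Klrd1, Coro1a, Cd53, Ncr1, Gzma, Abcg1 and Siglecf). The calls of Pirb, Ccr7, Flt3, Clec9a and Zbtb46 were not followed in this way. The SE of the 10 genes in LPS against control was 0.14 to 0.29, beside a median of 0.15 over all genes, and the parts of depth, spread between mice and number of mice in it were not separated.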
